A study of Sus scrofa with 6 samples.

Results

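The 7 genes described here were grouped for their known roles in the dermomyotome or in the departure of muscle precursors from it, and were followed through chromatin accessibility in pig somites and myotomes. They were the homeobox genes LBX1, MEOX1 and MEOX2, the receptor MET with its ligand HGF and its adaptor GAB1, and the chemokine receptor CXCR4. Their members were all accessible regions that overlapped a gene body or the 2 kb upstream of it in the Sscrofa11.1 pig genome, and there were 80 of these among the 294825 regions obtained by merging overlapping peaks of 6 libraries. LBX1 and CXCR4 had 1 region each, MEOX1 had 6, HGF had 8, MEOX2 had 11, MET had 19 and GAB1 had 34. Single-cell ATAC-seq, in which the transposase Tn5 cuts and tags open chromatin of each cell, had been made from somites at embryonic day 18 (E18) and day 21 (E21) and from myotomes at day 28 (E28). At each stage 1 library came from Tibetan pigs (ZZ) and 1 from Duroc × Tibetan crosses (DZ), and each library pooled 5 embryos of the same sow. No treatment or genetic change was applied in any group. Stage could be compared over 2 libraries a stage, 1 of each breed, so the spread behind every test was that between these libraries. E28 differed from E18 and E21 in the dissected tissue as well as in age, and age and tissue cannot be told apart.

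The somite is a block of mesoderm beside the neural tube, and its dorsal epithelium, the dermomyotome, gives rise to muscle precursors and to dermis. At limb levels the mesenchyme secretes HGF, which binds the receptor tyrosine kinase MET on precursors in the lateral dermomyotome and lets them leave the epithelium, with GAB1 docking signalling proteins on the activated receptor. The migrating precursors carry the homeobox factor LBX1 and respond to the chemokine CXCL12 through CXCR4. MEOX1 and MEOX2 are homeobox factors of the somite with roles in somite patterning and in limb muscle.

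The 6 libraries held 64439 barcodes, of which 58809 had 2000 to 30000 counts and were kept. Kept counts per library ran from 89816504 to 133037579, and the median per barcode from 8084.5 to 11452, with both E28 libraries lowest. Pairs of libraries shared 113 to 157 barcode sequences. Cells were grouped into 6 classes without using the regions near the 7 genes or near marker genes. The classes were named mesenchyme-like, neural progenitor-like, myogenic-like, neuron-like, endothelial-like and blood-like from marker genes. The myogenic-like class had 10 of 11 myogenic markers raised, with MYOG and CHRNA1 among its 10 leading genes. It made up 6.53% to 6.57% of kept barcodes at E18, 9.70% to 9.95% at E21 and 14.1% to 21.6% at E28, whereas the neural progenitor-like class fell from 20.6% and 33.4% at E18 to 2.31% and 2.41% at E28. The mesenchyme-like class was the largest in every library, at 52.6% to 79.6%, but its make-up changed with stage. In a finer clustering into 9 clusters, a cluster with 5 of 8 epithelial markers raised held 76.9% and 74.7% of this class at E18 and 7.68% and 6.83% at E28. A cluster with 6 of 9 fibroblast and mesenchyme markers raised, called the mesenchymal subcluster here, held 4.88% and 6.30% at E18 and 88.2% and 89.9% at E28, and a cluster with 5 of 7 sclerotome and cartilage markers raised held 16.8% and 17% against 3.33% and 2.57%. A change within the mesenchyme-like class therefore compares mostly different clusters, and cannot be told apart from this shift. In the neural progenitor-like class 5 of 7 neural progenitor and 3 of 7 neural crest markers were raised. Among the finer clusters, that named neural progenitor-like held 1926 and 2873 cells at E18 and 101 and 68 at E28. Another, named neural crest-like, held 423 and 541 at E18 and 159 and 190 at E28. Levels of the neural progenitor-like class at E18 and E28 may therefore come from different cells, and which finer clusters made it up was not counted. The mesenchymal subcluster made up 70.2% and 64.3% of kept barcodes at E28, whose tissue was labelled myotome. At E18 it held 366 and 334 cells, with median counts of 3930 and 3291.5, against 8027 and 8986 at E28. The cluster with epithelial markers had medians of 11476 and 11719 at E18 and 6406 and 3583 at E28. That with cartilage markers had 11389 and 11965, then 4883 and 4169.5. Stages within a finer cluster therefore differ in depth per barcode, and the part of depth was not tested. In the paper's RNA data the share of Pax3+ progenitors among myogenic cells fell markedly by E21. Stages of differentiation were not separated inside the myogenic-like class, so a change within it cannot be told apart from a shift among its cells.

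Of the 80 regions, 27 had a peak in all 6 libraries (33.75%, against 26.6% of all regions), 18 had a peak in 1 library (22.5%, against 22.9%) and the remaining 35 in some of them. The member regions comprised 65 in introns, 7 at promoters, 5 over exons, 2 at internal transcript starts of MET and 1 upstream of MET. Regions were numbered along each gene in the direction of transcription, so that MET 10 is the tenth region of MET. Their levels are given as counts per 1000000 kept counts (CPM). Series of 6 levels always run from E18 through E21 to E28, with ZZ before DZ at each stage. Each library had its own peak calls, and a region without one was listed at 0 there, so no fold was given for such regions.

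**Figure D1:**
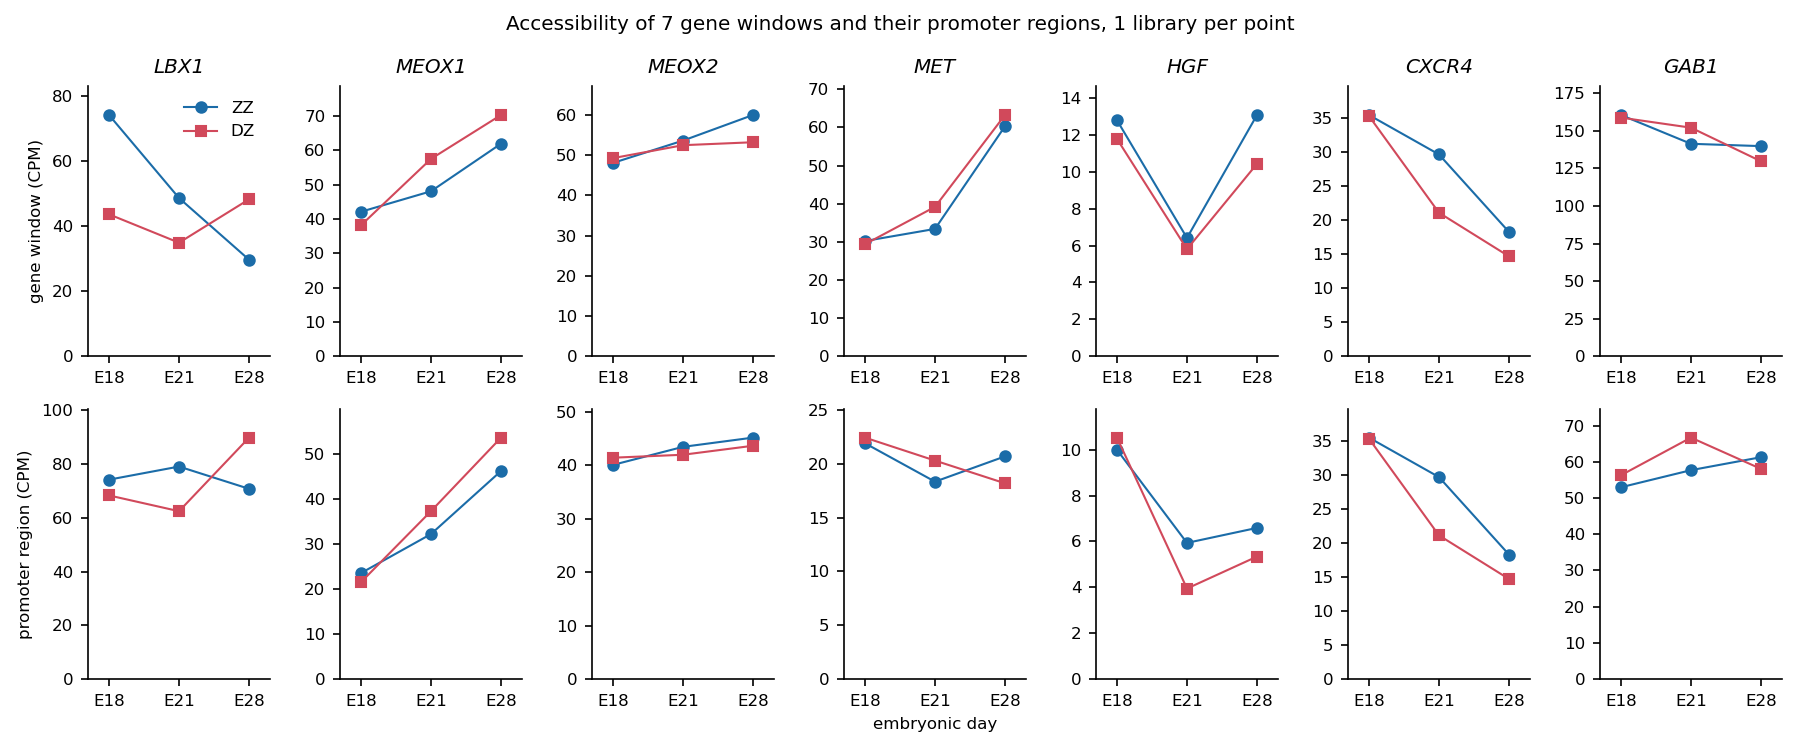
Levels in CPM (vertical axes, starting at 0) of the 7 gene windows (top row) and promoter regions (bottom row) in the 6 libraries, with embryonic day on the horizontal axis, blue circles for ZZ and red squares for DZ. The windows of MET and MEOX1 were higher in both E28 libraries than in both E18 libraries, and CXCR4 was lower in both. The MET promoter stayed between 18.2 and 22.4 CPM.

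Of the 27 shared member regions, 8 rose and 9 fell from E18 to E28, so that 17 changed. Without E18 ZZ 5 of the 27 passed and without E18 DZ 6, and over regions with a peak in any library 13 of 61 passed, 7 higher and 6 lower. The test was edgeR's quasi-likelihood test with stage and breed terms, fitted on all 78533 shared regions with Benjamini-Hochberg adjustment at 0.05. Of all shared regions 37.1% passed it, 19% higher and 18.1% lower, and the median log2 fold change was 0.08 over the 27 members and -0.02 over all regions. The share of all regions was not counted for the fits without a library or over regions with a peak in any library. Among the 7 gene windows, which sum every peak of a gene, MET and MEOX1 rose and CXCR4 and GAB1 fell, against 43.2% of all windows passing (21% higher, 22.3% lower). The length of peak in a region moved with its counts. When covered length entered the fit as an offset, so that counts were read per covered base, 14 of the 27 passed, 12 higher and 2 lower. Of all regions 52.2% then passed (45.8% higher, 6.39% lower), with a median log2 fold change of 0.43. The calls of MET 3, MET 12, MEOX1 1, MEOX1 3, MEOX2 5 and CXCR4 1 held under it. By position, 3 of 7 promoter regions passed (MEOX1 higher, CXCR4 and HGF lower), and 14 of 20 intronic regions passed, 7 higher and 7 lower. The shares of all promoter and of all intronic regions that passed were not counted, so this difference cannot be set against other genes. In whole libraries, more cells of a type and more open chromatin per cell cannot be told apart, and each gene is therefore also described within the cell classes.

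**Figure D2:**
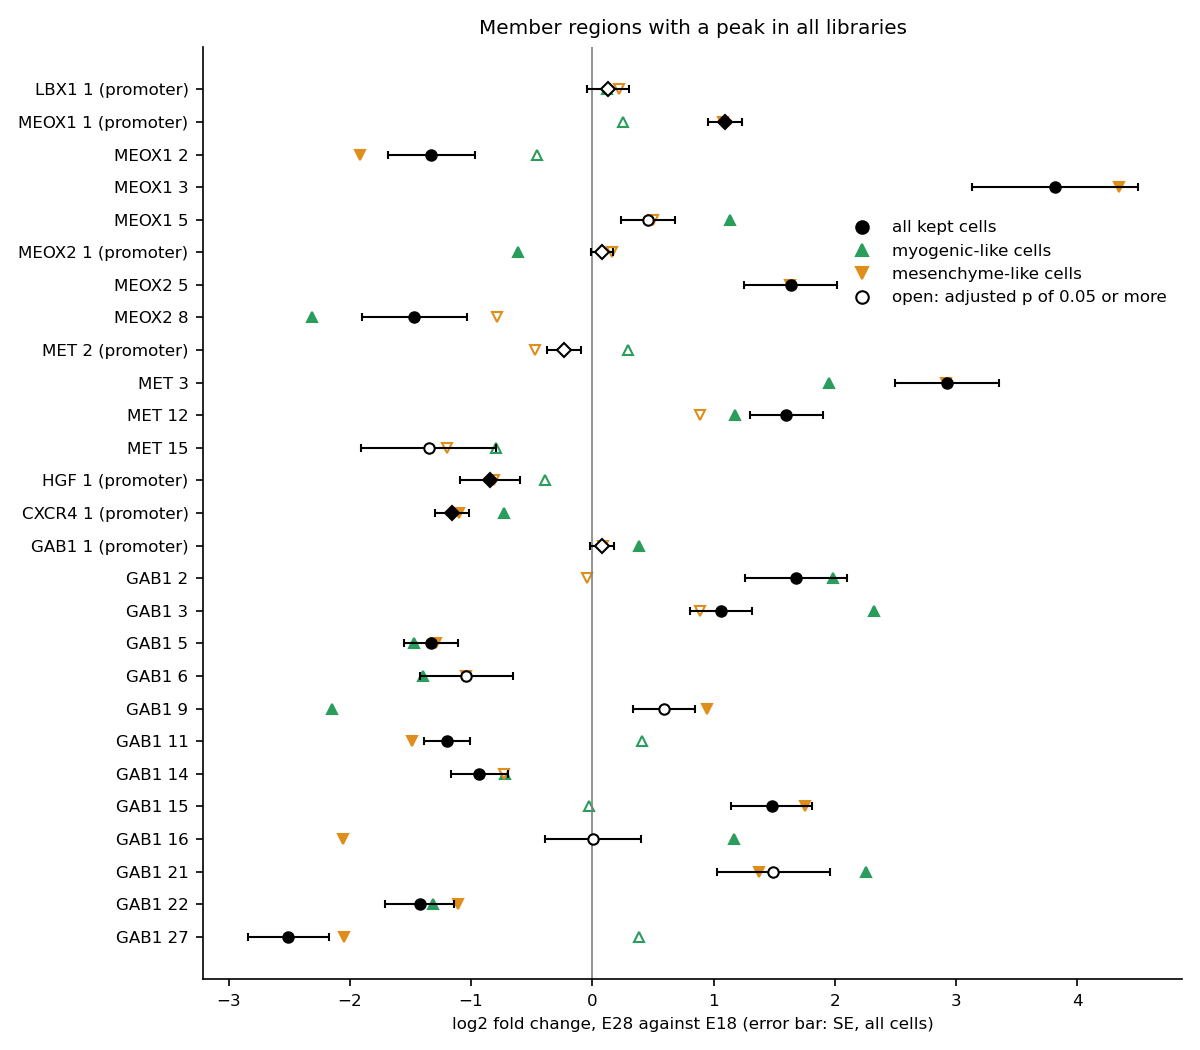
Log2 fold change of E28 against E18 (horizontal axis) for the 27 member regions with a peak in all 6 libraries (vertical axis), in black with its standard error for all kept cells (diamonds for promoters), and as green and orange triangles for myogenic-like and mesenchyme-like cells. Filled points had an adjusted p under 0.05. MEOX1 3 (3.81) and MET 3 (2.92) lay farthest to the right and GAB1 27 (-2.51) farthest to the left, while the promoters of LBX1, MEOX2, MET and GAB1 lay between -0.24 and 0.13.

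MET, the receptor, had 3 intronic regions that were called in every library. MET 3 and MET 12 rose, while its promoter did not pass. The gene lies on the minus strand at chr18:29426044-29541526. The promoter region MET 2 had 21.9, 22.4, 18.3, 20.3, 20.7 and 18.2 CPM, and the levels of the 3 stages overlapped (log2 fold change E28 against E18 -0.24, SE 0.14, edgeR adjusted p = 0.229). In contrast, MET 3, 9.27 kb into the first part of the gene (chr18:29531878-29532640), had 0.616, 0.489, 2.04, 2.27, 3.37 and 5.51 CPM. Both E28 levels lay above both E21 levels, and these above both E18 levels, and the log2 fold change of E28 against E18 was 2.92 (SE 0.43, adjusted p = 0.00608). MET 12, 69.5 kb into the gene (chr18:29471254-29472724), had 2.16, 1.97, 5.02, 5.43, 7.97 and 5.15 CPM, a log2 fold change of 1.60 (SE 0.30, adjusted p = 0.0115). Its E28 DZ level lay among the E21 levels, and the call was lost without E18 ZZ (adjusted p = 0.0678) or E18 DZ (adjusted p = 0.0848). The third, MET 15, had 2.09, 2.15, 1.93, 1.66, 1.503 and 0.436 CPM and did not pass (-1.35, SE 0.56, adjusted p = 0.106).

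Several MET regions had no peak at E18, and those described here were chosen after their values were seen. MET 10, 59.2 kb into the gene (chr18:29481783-29482863), had no peak at E18 and 1.46, 1.46, 5.69 and 7.47 CPM in the other 4 libraries. MET 13 likewise had no peak at E18 and 0.118, 0.956, 3.53 and 3.46 CPM later. MET 8 had 1.88, 2.81, 3.41 and 1.46 CPM at E21 and E28 and no peak at E18, so that its E21 and E28 levels overlapped. These 3 were all the MET regions with a peak in every E21 and E28 library and none at E18, a pattern held by 6.25% of member regions and 2.99% of all regions. MET 9 had a peak in 5 libraries, with 0.549 CPM in E18 ZZ, 0.982 and 1.66 CPM at E21 and 10.3 and 10.4 CPM at E28. In the opposite direction, MET 7 and MET 14 had peaks in the E18 libraries alone, at 0.545 to 0.631 and 1.01 to 1.03 CPM. MET 5, at an internal start that overlaps a coding exon, had 0.789, 0.649 and 0.555 CPM in both E18 libraries and E21 ZZ and no peak in the others.

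The MET window summed these regions to 30.2, 29.4, 33.4, 39.2, 60.3 and 63.3 CPM. It rose from E18 to E28 by a log2 fold change of 1.01 (SE 0.11, edgeR adjusted p = 0.00509) and from E21 to E28 by 0.74 (adjusted p = 0.0340). The second of these calls was lost without either E18 library, either E21 library or E28 DZ (adjusted p 0.0514 to 0.216). It was the 1 window of the 7 that passed between E28 and E21, where 6.21% of all windows did. The length covered by its peaks grew from 4377 to 5346 bp at E18 to 8659 to 10554 bp at E28, and with covered length as an offset the E28 against E18 value was 0.02 (adjusted p = 0.931). The promoters alone gave -0.36 for E28 against E18. MET 8, MET 10, MET 11 and MET 13 had no peak call at E18 and enter the sum as 0 there, so the value of the window depends in part on where peaks were called.

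**Figure D3:**
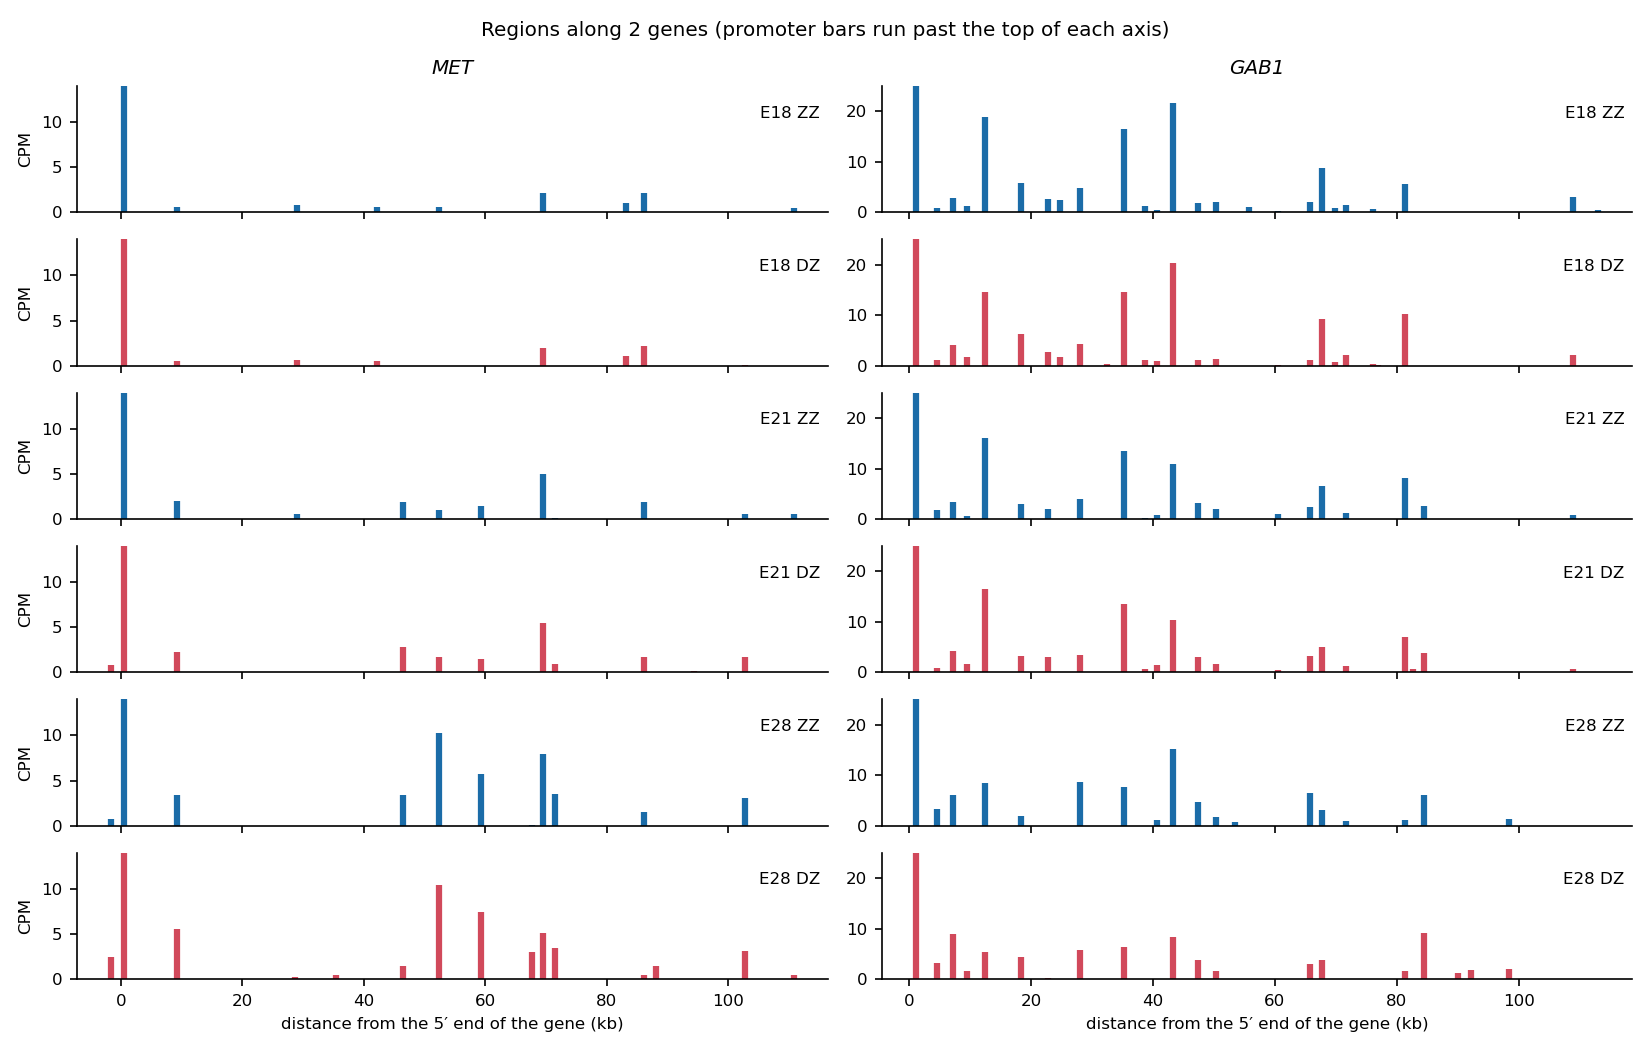
Level in CPM (vertical axes) of each region of MET (left) and GAB1 (right) by its distance in kb from the 5′ end of the gene (horizontal axis), with 1 row per library, blue for ZZ and red for DZ. The promoter bars run past the top of the axes, as the title says. The MET introns between 52.3 and 71.4 kb were taller in both E28 libraries than in both E18 libraries, and the GAB1 bars at 12.4, 35.2 and 81.4 kb were shorter.

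The 200 bases at the centre of 4 MET introns, shown on the plus strand of the Sscrofa11.1 reference, are given because these introns rose or gained a peak and were highest in myogenic-like cells in at least 5 of 6 libraries (MET 3 and MET 12) or in 4 of 4 (MET 10 and MET 13). Capitals mark letters that match, on either strand, the E-boxes CAGCTG and CACCTG, the homeodomain core TAATTA, the TEAD core GGAATG, the AP-1 core TGANTCA, the GATA core AGATAA, the GC box GGGCGG, the CCAAT box by its own letters, or the TATA box TATAAA.
MET 3: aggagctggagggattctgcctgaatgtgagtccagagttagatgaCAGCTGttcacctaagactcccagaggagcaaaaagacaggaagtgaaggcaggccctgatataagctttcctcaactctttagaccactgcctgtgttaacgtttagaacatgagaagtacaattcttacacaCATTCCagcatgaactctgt
MET 10: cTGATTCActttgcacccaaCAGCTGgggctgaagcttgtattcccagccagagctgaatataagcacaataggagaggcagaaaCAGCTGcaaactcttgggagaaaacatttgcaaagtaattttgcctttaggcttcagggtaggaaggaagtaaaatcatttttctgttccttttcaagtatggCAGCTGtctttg
MET 12: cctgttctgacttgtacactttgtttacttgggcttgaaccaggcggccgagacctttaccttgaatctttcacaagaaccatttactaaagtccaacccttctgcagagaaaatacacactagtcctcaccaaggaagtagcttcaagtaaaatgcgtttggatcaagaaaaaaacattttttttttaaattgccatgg
MET 13: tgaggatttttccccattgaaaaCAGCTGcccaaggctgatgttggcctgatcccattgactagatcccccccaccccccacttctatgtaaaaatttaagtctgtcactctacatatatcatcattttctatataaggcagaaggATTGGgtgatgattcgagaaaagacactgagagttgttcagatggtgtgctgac
The core of MET 10 (chr18:29482358-29482557) held 3 CAGCTG E-boxes and 1 AP-1 match, and 0.332% of the 78533 shared regions held 3 or more CAGCTG in their central 200 bases. MET 10 and MET 13 had no peak at E18 and are not among these shared regions. The median GC content of the shared cores was 53%, against 43% for MET 10 and 43.5% for MET 13. The cores of MET 3 (chr18:29532088-29532287) and MET 13 (chr18:29470052-29470251) held 1 CAGCTG each, and 20.2% of regions held 1 or more, and that of MET 12 (chr18:29472226-29472425) held none of the motifs searched. CAGCTG is a letter string that myogenic bHLH factors can bind, and a match describes the sequence only.

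Within cell classes, which were compared as a description with no test between them, the MET window was highest in myogenic-like cells in 6 of 6 libraries. It had 40.3, 44.0, 67.9, 76.9, 128 and 120 CPM in these cells. In tests over libraries within the myogenic-like class it rose from E18 to E21 by 0.75 on the log2 scale (edgeR adjusted p = 0.0168), and again from E21 to E28 by 0.76 (adjusted p = 0.0179), giving 1.51 in all (adjusted p = 0.000369). These window sums count a region without a peak call as 0, as MET 10 and MET 13 were in both E18 libraries, and the class fits were not made with covered length as an offset. MET 3 and MET 12, with a peak in all libraries, are given on their own. Within the mesenchyme-like class it rose by 0.64 from E18 to E28 (adjusted p = 0.00948), and within its mesenchymal subcluster it was at 24.6 and 18.6 CPM at E18, on 45 and 26 counts, and at 47.2 and 47.4 CPM at E28. Fits within a class were added after the data were seen. They bring the background to 42.7% of windows in myogenic-like and 43.5% in mesenchyme-like cells for E28 against E18, and to 8.73% and 6.46% in myogenic-like cells for the earlier and the later step.

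The MET introns differed in the class in which they were open. MET 10 had 7.55, 9.32, 28.4 and 27.9 CPM in myogenic-like cells from E21 ZZ to E28 DZ, and 0.379 to 1.19 CPM in mesenchyme-like cells of the same libraries. MET 13 had 0.664, 3.37, 16.6 and 12.3 CPM in myogenic-like cells and at most 0.744 CPM in mesenchyme-like cells. MET 12 was already at 8.60 and 7.95 CPM in myogenic-like cells at E18, then at 16.5, 18.2, 21.9 and 14.3 CPM, and rose within this class by 1.18 (adjusted p = 0.00869). MET 9 did not follow this pattern, with 12.4 and 11.7 CPM in myogenic-like and 10.5 and 10.8 CPM in mesenchyme-like cells at E28. MET 8 was higher in mesenchyme-like cells (2.93, 3.87, 4.30 and 2.04 CPM) than in myogenic-like cells (0.209 to 1.72 CPM) in each of its 4 libraries. MET 3 rose in both classes, by 1.95 in myogenic-like cells (adjusted p = 0.00941) and by 2.92 in mesenchyme-like cells (adjusted p = 0.00659). Inside the mesenchyme-like class it was at 1.09 and 1.43 CPM at E18, on 2 counts each, and at 3.08 and 6.36 CPM at E28 in the mesenchymal subcluster. In the cluster with epithelial markers it was at 0.377 and 0.534 CPM and at 0.924 and 1.1196 CPM, on 4 and 3 counts at E28, and in the cluster with cartilage markers at 1.14 and 0.946 CPM and at 0.590 and 0 CPM, on 1 and 0 counts at E28.

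**Figure D4:**
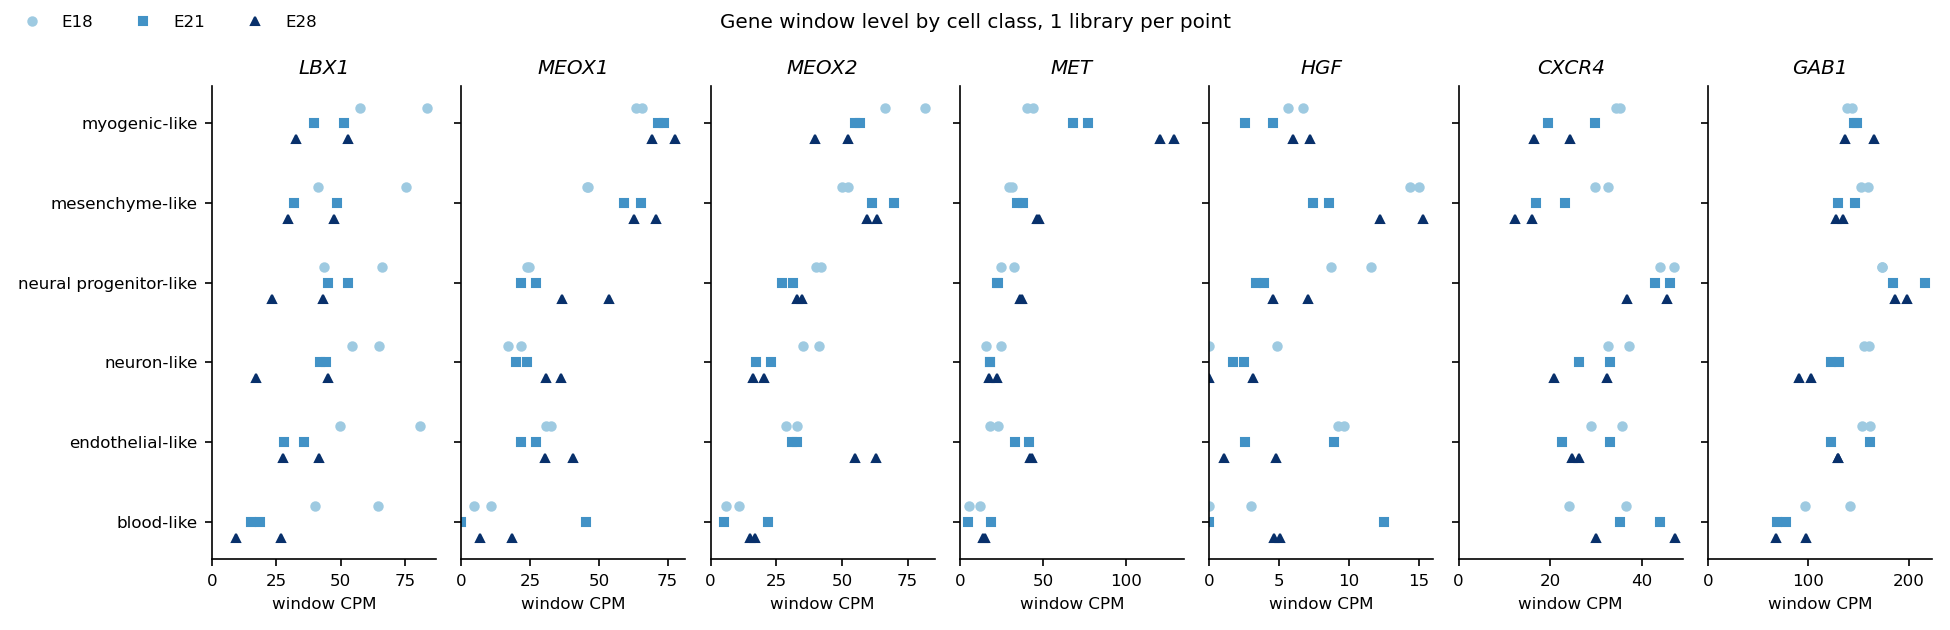
CPM of each gene window (horizontal axes, starting at 0) in each of the 6 cell classes (vertical axis), 1 point per library, with circles for E18, squares for E21 and triangles for E28. MET and MEOX1 were highest in myogenic-like cells in all 6 libraries, GAB1 in neural progenitor-like cells in all 6, and HGF in mesenchyme-like cells in 5 of 6. In the finer clustering, not drawn here, the GAB1 mean was 192 CPM in the neural crest-like cluster and 170 CPM in the neural progenitor-like cluster. The HGF mean there was 13.98 CPM in the neural progenitor-like cluster, with libraries from 2.72 to 39.1 CPM. It was 12.8 CPM in the cluster with epithelial markers and 12.3 CPM in the mesenchymal subcluster.

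**Figure D5:**
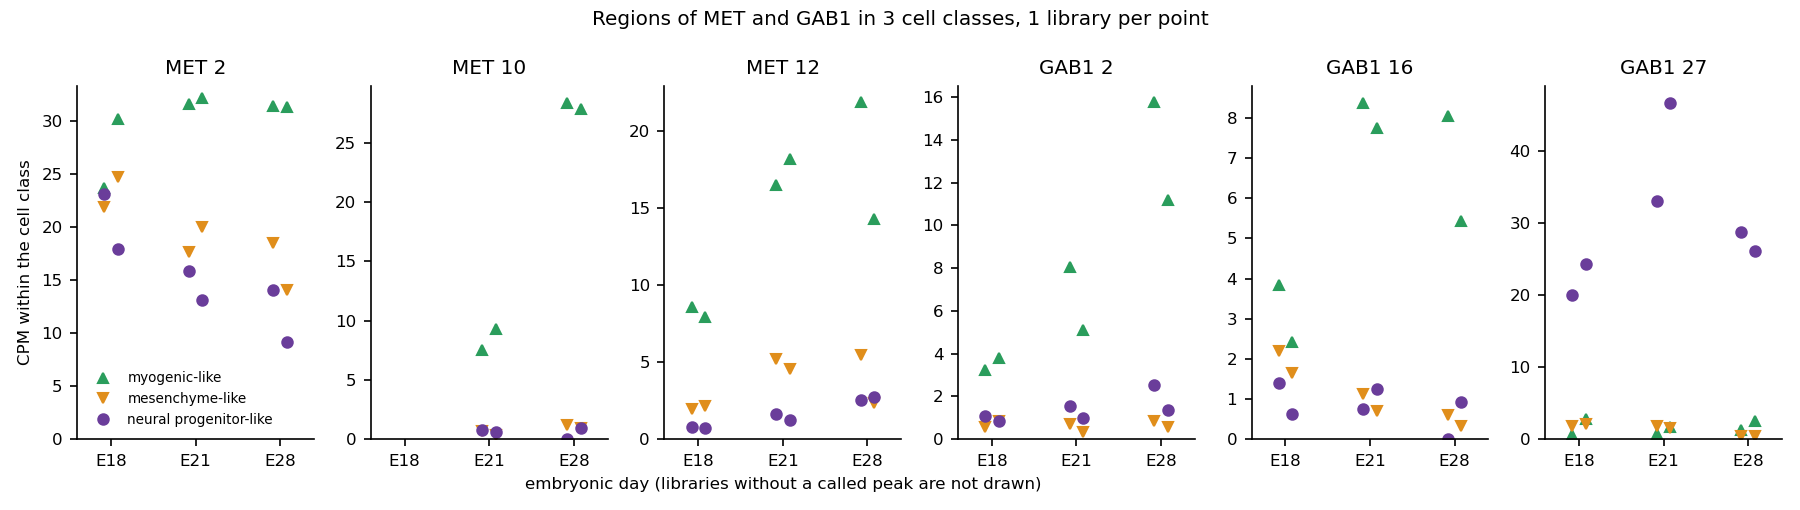
CPM within a cell class (vertical axes, starting at 0) of 3 MET and 3 GAB1 regions by embryonic day (horizontal axes), 1 point per library with ZZ left of DZ, for myogenic-like (green), mesenchyme-like (orange) and neural progenitor-like cells (purple); libraries without a called peak have no point. MET 10 reached 28.4 CPM in myogenic-like cells and stayed at or under 1.19 CPM in mesenchyme-like cells, and GAB1 27 was above 19 CPM in neural progenitor-like cells and under 3 CPM in the other two.

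HGF, the ligand of MET, fell at its promoter. Region HGF 1 (chr9:98436710-98438827), which spans the start of the gene at chr9:98437771-98513573 on the plus strand, had 10.0, 10.5, 5.94, 3.95, 6.59 and 5.34 CPM. Both E18 levels lay above the other 4, and the log2 fold change of E28 against E18 was -0.84 (SE 0.25, edgeR adjusted p = 0.0428). This call was lost when any 1 of the 6 libraries was left out (adjusted p 0.0660 to 0.370), and with covered length as an offset the value was 0.015. The E21 level was as low (E21 against E18 -1.15, SE 0.25), which missed the threshold (adjusted p = 0.0531). The HGF window had 12.8, 11.8, 6.41, 5.80, 13.1 and 10.4 CPM and did not pass between E28 and E18 (-0.11, SE 0.19, adjusted p = 0.670). Other regions, picked with their values in view, added to the window at E28. The introns HGF 3 and HGF 6 had peaks at E28 alone, with 0.924 and 1.78 CPM and with 5.54 and 1.80 CPM, and HGF 7, over a coding exon, had 1.49 CPM in E28 DZ and none in E28 ZZ. The 2 E28 levels of HGF 6 differed more than 3-fold between ZZ and DZ.

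The HGF window was highest in mesenchyme-like cells in 5 of 6 libraries, at 7.41 to 15.3 CPM, against 2.58 to 7.22 CPM in myogenic-like cells. The low depth of the small classes limits this order, since single libraries of the blood-like and neuron-like classes were at 0. In the finer clustering the mesenchymal subcluster was not the highest, with a mean HGF window of 12.3 CPM (6.80 to 17.5 CPM over libraries). The cluster with epithelial markers had 12.8 CPM (8.81 to 16.8 CPM). The neural progenitor-like cluster had 13.98 CPM, with libraries from 2.72 to 39.1 CPM, so the ranges of these clusters overlapped. At E28 this last cluster held 101 and 68 cells with 277738 and 178899 counts over all peaks, so its mean rests in part on few counts. Neither class fit passed for HGF 1 (mesenchyme-like -0.81, adjusted p = 0.0595, and myogenic-like -0.39, adjusted p = 0.595).

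CXCR4, the receptor of CXCL12, fell from E18 to E28. Its 1 region covers the promoter and much of the gene (chr15:15661906-15665529, gene at chr15:15663652-15666706 on the plus strand) and had 35.4, 35.3, 29.6, 21.1, 18.3 and 14.7 CPM. The 3 stages did not overlap, and the log2 fold change of E28 against E18 was -1.16 (SE 0.14, edgeR adjusted p = 0.00392). Neither step passed alone, with -0.57 from E18 to E21 (adjusted p = 0.0643) and -0.59 from E21 to E28 (adjusted p = 0.0580). The E28 against E18 call held under all alternatives run.

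CXCR4 was highest in neural progenitor-like cells in 5 of 6 libraries, at 36.7 to 47.1 CPM, and this is the class whose share of cells fell to 2.31% and 2.41% at E28. The summed level of the 7 neural progenitor markers moved the same way, from 372 to 453 CPM in the E18 and E21 libraries to 214 and 249 CPM at E28, and the part of this change in the library level was not tested. In neural progenitor-like cells, which were not fitted, the region had 47.1, 43.8, 46.2, 42.8, 36.7 and 45.4 CPM, with 73 and 99 counts at E28, and the stages overlapped. The make-up of this class may differ between stages, as given above. In the finer clustering the mean level of CXCR4 was highest in the neural crest-like cluster, at 45.5 CPM. The blood-like cluster had 35.9 CPM and the neural progenitor-like cluster 32.1 CPM, with libraries of the latter from 0 to 49.95 CPM. In both fitted classes CXCR4 fell: the region had 32.5, 29.7, 23.2, 16.9, 15.9 and 12.3 CPM in the mesenchyme-like class (-1.10, adjusted p = 0.00410) and 35.1, 34.3, 29.8, 19.5, 24.3 and 16.5 CPM in myogenic-like cells (-0.73, adjusted p = 0.0123). In the mesenchymal subcluster it was at 28.99 and 27.9 CPM at E18, on 53 and 39 counts, and at 15.4 and 11.96 CPM at E28. In the cluster with epithelial markers it was at 32.5 and 29.6 CPM at E18 and at 25.9 and 19.4 CPM at E28.

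Promoter sequences of CXCR4 and HGF, among the genes whose promoter regions passed the test, and of MET, whose promoter did not, are given as the 250 bases before the annotated start on the strand of the gene, with the same motifs in capitals.
CXCR4 promoter: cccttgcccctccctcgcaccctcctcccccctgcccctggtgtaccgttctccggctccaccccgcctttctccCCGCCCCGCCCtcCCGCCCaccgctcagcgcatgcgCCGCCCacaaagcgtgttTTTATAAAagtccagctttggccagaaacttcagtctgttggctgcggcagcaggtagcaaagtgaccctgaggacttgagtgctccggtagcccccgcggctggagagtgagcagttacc
HGF promoter: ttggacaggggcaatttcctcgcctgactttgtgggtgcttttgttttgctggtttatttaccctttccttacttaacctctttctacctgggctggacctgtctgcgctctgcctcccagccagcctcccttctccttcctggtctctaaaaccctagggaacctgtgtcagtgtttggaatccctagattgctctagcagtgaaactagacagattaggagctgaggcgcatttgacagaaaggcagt
MET promoter: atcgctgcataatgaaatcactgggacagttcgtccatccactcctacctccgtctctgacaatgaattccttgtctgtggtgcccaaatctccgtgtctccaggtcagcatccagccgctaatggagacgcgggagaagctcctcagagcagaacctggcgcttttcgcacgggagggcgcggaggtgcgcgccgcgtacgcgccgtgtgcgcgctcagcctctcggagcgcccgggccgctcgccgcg
The CXCR4 promoter (chr15:15663402-15663651) held 4 GC boxes and 2 overlapping TATAAA matches, letter strings present in 45.9% and 9.77% of 19548 promoters of this length. The HGF (chr9:98437521-98437770) and MET (chr18:29541527-29541776) promoters held none of the motifs searched. Their GC content was 50% for HGF, 63.2% for MET and 64.8% for CXCR4, against a median of 57.6% over all promoters.

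MEOX1, a homeobox factor of the early somite, rose at its promoter. Region MEOX1 1 (chr12:19429898-19436154, gene at chr12:19431397-19452430 on the plus strand) had 23.5, 21.5, 32.2, 37.3, 46.2 and 53.6 CPM. The stages did not overlap, and the log2 fold change of E28 against E18 was 1.09 (SE 0.14, edgeR adjusted p = 0.00469). MEOX1 3, an intronic region 11.9 kb into the gene (chr12:19443070-19443537), had 0.188, 0.0882, 0.609, 0.872, 2.03 and 1.99 CPM, a log2 fold change of 3.81 (SE 0.68, adjusted p = 0.01001) on 11 to 25 counts at E18 and 182 to 196 at E28, and of 3.20 without E18 DZ (adjusted p = 0.0764). MEOX1 2, 9.51 kb into the gene, moved the other way, with 11.8, 9.10, 5.99, 11.03, 4.31 and 4.43 CPM (-1.33, SE 0.36, adjusted p = 0.0327). Its E21 DZ level lay among the E18 levels, and without E18 ZZ the value was -0.81 (adjusted p = 0.248), and with covered length as an offset 0.057. The MEOX1 window had 42.1, 38.2, 48.1, 57.5, 61.9 and 70.3 CPM and rose between E18 and E28 by 0.68 on the log2 scale (SE 0.13, adjusted p = 0.0136), or by 0.48 without E18 DZ (adjusted p = 0.0836).

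In cell classes the MEOX1 promoter region was at 50.1, 48.4, 57.6, 52.4, 51.3 and 60.1 CPM in myogenic-like cells, which did not pass between E28 and E18 (0.25, SE 0.14, adjusted p = 0.203). In mesenchyme-like cells it rose from 24.8 and 25.4 CPM through 40.4 and 42.3 CPM to 48.0 and 54.6 CPM (1.08, SE 0.12, adjusted p = 0.00337). Within the mesenchymal subcluster it was at 25.2 and 32.1 CPM at E18, on 46 and 45 counts, and at 47.8 and 55.7 CPM at E28, and within the cluster with epithelial markers at 23.3 and 24.5 CPM and at 49.7 and 48.1 CPM. In the cluster with cartilage markers it was at 31.7 and 27.1 CPM at E18 and at 47.8 and 24.6 CPM at E28, on 81 and 33 counts, so that the stages overlapped there. It was at 4.36 to 13.5 CPM in endothelial-like cells. MEOX1 3 was at 2.43 and 2.50 CPM in mesenchyme-like cells at E28, against 0.266 and 0.710 CPM in myogenic-like cells, and reached 3.49 CPM in endothelial-like cells, which held 20 counts of it over all libraries. Whether the change differed between both classes was not tested.

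MEOX2, the related factor on chromosome 9 (chr9:84945178-85009939, minus strand), kept a level promoter in whole libraries, with 40.1, 41.4, 43.4, 42.0, 45.2 and 43.6 CPM in MEOX2 1 (log2 fold change E28 against E18 0.08, SE 0.09, edgeR adjusted p = 0.506). Its introns moved in opposite directions. MEOX2 5, 19.4 kb into the gene (chr9:84990284-84990868), had 0.985, 0.842, 1.16, 0.966, 3.26 and 2.62 CPM and rose by 1.64 (SE 0.39, adjusted p = 0.0222). MEOX2 8, 29.5 kb into the gene (chr9:84980044-84980896), had 4.81, 5.59, 2.92, 2.43, 3.03 and 1.18 CPM and fell (-1.47, SE 0.43, adjusted p = 0.0429). The first call was lost without any 1 of the E18 and E28 libraries (adjusted p 0.0531 to 0.170), and the second without any 1 library other than E28 ZZ (adjusted p 0.0617 to 0.291).

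The cores of these intronic homeobox-gene regions are shown on the plus strand because they moved in opposite directions within 1 gene family.
MEOX1 3: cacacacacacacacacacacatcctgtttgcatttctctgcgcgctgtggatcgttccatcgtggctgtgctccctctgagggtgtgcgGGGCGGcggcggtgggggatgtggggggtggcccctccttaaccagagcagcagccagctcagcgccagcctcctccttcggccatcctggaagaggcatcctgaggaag
MEOX2 5: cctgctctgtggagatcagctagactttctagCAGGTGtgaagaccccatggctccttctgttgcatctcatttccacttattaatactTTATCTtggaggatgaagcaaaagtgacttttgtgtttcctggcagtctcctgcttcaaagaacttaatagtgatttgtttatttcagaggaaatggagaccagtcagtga
MEOX2 8: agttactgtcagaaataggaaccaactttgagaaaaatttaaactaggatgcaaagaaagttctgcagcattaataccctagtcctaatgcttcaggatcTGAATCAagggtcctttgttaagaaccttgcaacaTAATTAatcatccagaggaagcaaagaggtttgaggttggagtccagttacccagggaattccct
The core of MEOX2 8 (chr9:84980360-84980559) held 1 homeodomain match TAATTA, as did 3.07% of regions, and 1 AP-1 match. That of MEOX2 5 (chr9:84990482-84990681) held 1 CACCTG E-box and 1 GATA match, and that of MEOX1 3 (chr12:19443258-19443457) held 1 GC box.

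The promoter of MEOX2, level in whole libraries, passed within myogenic-like cells and not within mesenchyme-like cells. In myogenic-like cells MEOX2 1 had 61.3, 76.8, 52.4, 50.5, 48.1 and 37.9 CPM and fell (-0.61, SE 0.15, adjusted p = 0.0110), and the window fell by 0.75 (adjusted p = 0.0104). In mesenchyme-like cells MEOX2 1 had 41.7, 45.1, 54.8, 48.0, 45.9 and 47.6 CPM (0.16, SE 0.11, adjusted p = 0.275). In endothelial-like cells, which were not fitted, it had 23.7, 30.5, 24.4, 22.8, 47.9 and 48.3 CPM, so that both E28 levels lay above all others. The intron MEOX2 8 fell within myogenic-like cells (-2.31, SE 0.58, edgeR adjusted p = 0.0131) and did not pass within mesenchyme-like cells (-0.79, SE 0.40, adjusted p = 0.171). MEOX2 5 rose within mesenchyme-like cells (1.63, SE 0.35, adjusted p = 0.0168).

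LBX1, the homeobox factor of migrating precursors, lay in 1 wide accessible domain and did not pass between stages or breeds. Region LBX1 1 (chr14:112271285-112288832) spanned 17548 bp, from beyond the 2 loci LOC110256659 and LOC102161206 across the whole gene (chr14:112283479-112287631, minus strand). It had 74.2, 68.3, 79.0, 62.4, 70.8 and 89.8 CPM (log2 fold change E28 against E18 0.13, SE 0.17, edgeR adjusted p = 0.573), and passed without E28 ZZ (0.44, adjusted p = 0.0187) and with covered length as an offset (0.60, adjusted p = 4.51e-05). The level per covered kb was 4.23 to 4.93 CPM at E18 and E21 and 6.56 and 6.80 CPM at E28. Under this offset 45.8% of all regions were higher at E28, with a median log2 fold change of 0.43. The LBX1 window had 74.2, 43.7, 48.6, 34.9, 29.7 and 48.3 CPM, and here 1 peak covered the whole domain in E18 ZZ and was counted whole, while the other libraries split the domain so that 6124 to 10813 bp were counted. The window value (-0.58, SE 0.37, adjusted p = 0.246) therefore depended on where peaks were split, and without E28 DZ it was -1.34 (adjusted p = 0.00589). In cell classes the LBX1 window was highest in myogenic-like cells in 4 of 6 libraries and in neural progenitor-like cells in the other two, with class means between 29.1 and 52.9 CPM.

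GAB1, the docking adaptor of MET, had the most regions, 33 of them within introns of a gene of 133.6 kb (chr8:84257958-84391511, minus strand). Its window fell slightly, with 161, 159, 141, 152, 140 and 130 CPM (log2 fold change E28 against E18 -0.28, SE 0.08, edgeR adjusted p = 0.0459), a call lost when any 1 library was left out (adjusted p 0.0562 to 0.214) and turned with covered length as an offset, at 0.49. Over all windows the median under this offset was 0.54. The promoter region GAB1 1 was level in whole libraries, at 53.0, 56.3, 57.7, 66.7, 61.3 and 58.0 CPM (0.08, SE 0.10, adjusted p = 0.539). It rose within myogenic-like cells (0.39, SE 0.13, edgeR adjusted p = 0.0462) and did not pass within mesenchyme-like cells (0.085, SE 0.11, adjusted p = 0.563). Of the 13 shared GAB1 regions 8 passed in whole libraries, 3 higher and 5 lower, beside 37.1% of all shared regions (19% higher, 18.1% lower).

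Of the GAB1 regions that fell, GAB1 27, 81.4 kb into the gene (chr8:84309351-84310920), changed most. It had 5.57, 10.3, 8.13, 6.95, 1.22 and 1.58 CPM, with both E28 levels far below the rest (-2.51, SE 0.34, adjusted p = 0.00502). GAB1 5 had 18.8, 14.5, 16.1, 16.5, 8.44 and 5.42 CPM (-1.33, SE 0.22, adjusted p = 0.00836), and GAB1 11 had 16.5, 14.5, 13.5, 13.6, 7.69 and 6.26 CPM (-1.20, SE 0.19, adjusted p = 0.00726). These 3 were also the only shared member regions that passed between E28 and E21, where 7.13% of all regions did (4.61% lower), with GAB1 27 at -2.43 (adjusted p = 0.0258), and each of these 3 calls was lost without either E21 library (adjusted p 0.190 to 0.252). The GAB1 11 call was also lost without either E18 library or E28 DZ (adjusted p 0.0626 to 0.0816), and that of GAB1 5 without E18 ZZ (adjusted p = 0.0504). GAB1 14 had 21.7, 20.4, 10.96, 10.3, 15.3 and 8.29 CPM and fell from E18 to E28 (-0.93, SE 0.24, adjusted p = 0.0272), with E28 ZZ above both E21 levels, and only leaving out E28 ZZ kept this call. With covered length as an offset GAB1 5 was at 0.24, GAB1 11 at -0.25 and GAB1 27 at -0.58, and none of them passed. The separate E28 against E18 call of GAB1 11 was lost without either E18 library, and that of GAB1 5 without E18 ZZ.

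GAB1 27 was open in neural progenitor-like cells, at 19.99, 24.3, 33.0, 46.7, 28.7 and 26.1 CPM, and had at most 2.77 CPM in myogenic-like and mesenchyme-like cells. Its mean was 7.14 CPM in neuron-like cells (up to 15.7 CPM) and 5.43 CPM in endothelial-like cells (up to 10.1 CPM). Within neural progenitor-like cells its E28 levels, from 57 counts in each library, lay inside the range of the earlier ones, and the share of this class fell in the same libraries. The make-up of the class may differ between these stages, as given above. The part of the class share in the fall of the library level was not tested. GAB1 11 was highest in endothelial-like or neural progenitor-like cells in 5 of 6 libraries, fell within mesenchyme-like cells (-1.48, adjusted p = 0.00959) and did not pass within myogenic-like cells (0.41, adjusted p = 0.297). GAB1 5 fell within both fitted classes, by 1.29 in mesenchyme-like (adjusted p = 0.00935) and by 1.47 in myogenic-like cells (adjusted p = 0.00591).

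GAB1 2, GAB1 3 and GAB1 29, which were chosen after their values were seen, differed in the class in which they were open. GAB1 2 was highest in myogenic-like cells in 6 of 6 libraries, GAB1 3 in 1 of 6 and GAB1 29 in 0 of 4. GAB1 2, 4.53 kb into the gene (chr8:84386678-84387290), had 0.902, 1.05, 1.73, 0.966, 3.34 and 3.15 CPM in whole libraries (1.68, SE 0.42, edgeR adjusted p = 0.0263). In myogenic-like cells it had 3.21, 3.80, 8.05, 5.09, 15.8 and 11.2 CPM and rose by 1.98 (adjusted p = 0.00278), while in mesenchyme-like cells it was at 0.309 to 0.857 CPM in every library. GAB1 3 rose in myogenic-like cells from 2.90 and 3.69 CPM at E18 to 15.0 and 16.3 CPM at E28 (2.32, adjusted p = 0.000998), and was as high in neural progenitor-like cells at E28, at 20.6 and 14.7 CPM. GAB1 29 had no peak at E18 and 2.66, 3.79, 6.00 and 9.12 CPM later, with 3.20 to 11.6 CPM in mesenchyme-like and 0.581 to 3.01 CPM in myogenic-like cells. Its mean was highest in neuron-like cells, at 8.65 CPM (5.69 to 11.95 CPM, 182 counts), against 6.65 CPM in mesenchyme-like cells.

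GAB1 16 and GAB1 9 moved in opposite directions in the fitted classes, and neither passed in whole libraries. GAB1 16 had 3.84, 2.42, 8.38, 7.75, 8.04 and 5.43 CPM in myogenic-like cells and rose (1.17, SE 0.37, adjusted p = 0.0363), while in mesenchyme-like cells it fell from 2.18 and 1.65 CPM to 0.594 and 0.323 CPM (-2.06, SE 0.46, adjusted p = 0.0193). GAB1 9 fell in myogenic-like cells from 6.53 and 4.38 CPM to 2.06 and 0.626 CPM (-2.14, SE 0.51, adjusted p = 0.009999) and rose in mesenchyme-like cells from 5.06 and 4.50 CPM to 10.4 and 7.59 CPM (0.95, SE 0.25, adjusted p = 0.0296). In the mesenchymal subcluster GAB1 9 was at 12.03 and 5.71 CPM at E18, on 22 and 8 counts, and at 10.8 and 7.67 CPM at E28, so that its stages overlapped. GAB1 16 was at 4.92 and 3.57 CPM there at E18, on 9 and 5 counts, and at 0.558 and 0.345 CPM at E28.

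The cores of GAB1 2, which among the 6 classes was highest in myogenic-like cells, and of GAB1 27, which was highest in neural progenitor-like cells, are shown on the plus strand.
GAB1 2: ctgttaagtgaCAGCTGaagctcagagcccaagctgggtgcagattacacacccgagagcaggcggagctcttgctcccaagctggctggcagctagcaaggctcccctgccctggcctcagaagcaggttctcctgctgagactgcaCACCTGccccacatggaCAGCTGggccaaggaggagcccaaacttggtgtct
GAB1 27: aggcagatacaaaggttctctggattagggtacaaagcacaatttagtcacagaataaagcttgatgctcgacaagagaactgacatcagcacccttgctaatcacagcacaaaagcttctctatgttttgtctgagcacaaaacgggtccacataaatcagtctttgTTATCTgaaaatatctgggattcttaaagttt
The GAB1 2 core (chr8:84386874-84387073) held 2 CAGCTG and 1 CACCTG E-box, and 2.95% of regions held 2 or more CAGCTG. The GAB1 27 core (chr8:84309922-84310121) held 1 GATA match, as did 6.65% of regions, and no E-box.

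Over all member regions within cell classes, 25 could be fitted in myogenic-like cells, and 8 of them rose and 8 fell from E18 to E28, which is 16 against 36.2% of all regions (19.1% higher, 17.1% lower). In mesenchyme-like cells 14 of 27 passed, 7 in each direction, against 38.3% of all regions (20.1% higher, 18.1% lower). Each class was 1 cluster, named here from marker genes and not taken from the study's own annotation, and its make-up could change with stage.

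From E18 to E21 no member region or window passed edgeR's test in whole libraries, although 6.59% of regions and 2.14% of windows did. At an unadjusted p under 0.05 there were 11 of the 27 member regions, beside 27.6% of all regions, and DESeq2 called 7 regions and 4 windows, with 18.1% of all regions and 33.8% of all windows called. The largest values were those of MEOX1 3 (2.37, SE 0.66, edgeR adjusted p = 0.0859) and MET 3 (1.87, SE 0.41, adjusted p = 0.0546). MET 12 (1.28, SE 0.30, adjusted p = 0.0610) and GAB1 14 (-1.05, SE 0.24, adjusted p = 0.0564) were also near the threshold.

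Between breeds no member region or window passed in whole libraries, with edgeR or DESeq2, and none had an unadjusted p under 0.05 there, beside 4.94% of all regions and 5.24% of all windows. The fold changes of DZ against ZZ ran from -0.57 to 0.50 on the log2 scale over the 27 regions and from -0.24 to 0.13 over the 7 windows. Of all regions 0% and of all windows 0.00442% passed. The lowest unadjusted edgeR p in whole libraries belonged to GAB1 3 (0.49, SE 0.21, edgeR adjusted p = 0.846). Within myogenic-like cells 3 of 25 regions had an unadjusted edgeR p under 0.05, with fold changes over the 25 from -1.21 to 1.53. Within mesenchyme-like cells 1 of 27 regions had such a p. The CXCR4 window had it in both classes (-0.37 in myogenic-like and -0.28 in mesenchyme-like cells). None of these passed after adjustment.

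The other genes of the pathway were taken from a list of 34, of which 33 had a peak in all libraries. Of these, 3 rose and 11 fell between E18 and E28 as windows, beside the 21% higher and 22.3% lower among all windows. All 5 genes of HGF processing fell in CPM, but with covered length as an offset HGFAC turned (1.32, adjusted p = 1.1e-08), ST14 (0.29), HPN (-0.04) and SPINT2 (0.22) did not pass, and SPINT1 alone still fell. SPINT1, an inhibitor of the proteases that activate HGF, fell from 45.0 and 39.1 CPM to 15.4 and 13.8 CPM (-1.56, SE 0.10, edgeR adjusted p = 0.00268), and SPINT2, a second such inhibitor, fell by 1.58 (adjusted p = 0.00818). Epithelial genes moved in the same libraries, with the summed level of the 8 epithelial markers at 333 and 339 CPM at E18 and 171 and 176 CPM at E28, and the part of these cells in the fall was not tested. Of 10 MET signalling genes GRB2, STAT3 and CBL rose and none fell. PIK3CA had no peak at E18 and is not counted.

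Of 5 chemokine and guidance genes 3 fell, among them EPHA4, a receptor that guides migrating cells, with 131 and 142 CPM at E18 and 76.4 and 77.1 CPM at E28 (-0.87, SE 0.10, adjusted p = 0.00524). Of 14 genes listed as factors of the dermomyotome or of muscle precursors 3 fell and 11 did not pass, where 22.3% of all windows fell. PAX3, the paired-box factor of the dermomyotome upstream of MET, fell from 125 and 134.4 CPM to 69.3 and 79.7 CPM (-0.84, SE 0.12, adjusted p = 0.00772), and TCF21 fell from 44.4 and 33.2 CPM to 9.90 and 11.7 CPM (-1.86, SE 0.20, adjusted p = 0.00476). The median log2 fold change over the 33 genes was -0.12. With covered length as an offset, 21 of the 33 genes were higher at E28 and 2 were lower, where 68.8% of all windows passed (66.7% higher, 2.17% lower). The median was then 0.48 over these genes and 0.54 over all windows. The falls of TCF21 (-0.74, adjusted p = 0.000516) and SPINT1 (-0.53, adjusted p = 0.00688) held under the offset, whereas PAX3 (0.31, adjusted p = 0.0298) and EPHA4 (0.48, adjusted p = 0.00110) turned.

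In the 50 kb on either side of the 7 windows, 8 of 32 shared regions rose and 6 fell between E18 and E28, beside 19% and 18.1% of all shared regions. The flanks of MET, MEOX2 and HGF held 2, 0 and 0 shared regions, and none of these passed.

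By Pearson's r over 36 sums, one for each class and library, the windows most like that of MET were PRKAR1B and SPARCL1 (both 0.88) and LOC110256831 (0.87) among 18899 windows. For MEOX1 they were KCNU1 (0.89), PARVA (0.88) and FBN1 (0.87), and for MEOX2 they were SAMD4A (0.89), SYNPO2 (0.88) and TNC (0.87). HGF and CXCR4 had no window above 0.76 and 0.79, those of LOC110256597 and FHDC1. LBX1 was most like PDX1 (0.86) and GAB1 most like LOC110255564 (0.86). The 36 sums share libraries and depth, so these values describe likeness in these data and carry no test.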

How the data were processed

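Single-cell ATAC-seq of 6 libraries was analysed from deposited peak lists and matrices of counts. The authors made these counts with Cell Ranger ATAC 1.2.0, which calls peaks in each library and counts Tn5 cut sites per peak and barcode, so 90.1% to 92.4% of entries were even. The genome was Sscrofa11.1, and later steps of the study used Seurat 3.1.1 and Signac 0.2.2.

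Barcodes with 2000 to 30000 counts were kept, and no doublet caller was run. Regions were unions of peaks sharing 1 bp or more across libraries, and genes came from the RefSeq annotation of Sscrofa11.1 (the gene body plus 2 kb upstream). A region within 500 bp of an annotated start was called a promoter. Counts were summed per library and tested with edgeR 4.0.16 in R 4.3.3 (quasi-likelihood, TMM, low-count filter, stage and breed terms, 2 residual degrees of freedom) over all features. Labels do not say that libraries are separate animals, and each is a pool, so p-values measure the spread between these libraries. Cells were clustered with scikit-learn 1.9.0 and leidenalg 0.10.2 (resolution 0.3, and 0.6 for the finer clusters, 50 components) on regions more than 100 kb from members and markers, and a class took a name from at least 3 raised markers. Fits within classes were chosen after seeing the data. Counting intervals are not given, since cut sites of one molecule are not independent.

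The genes, lists and tests were chosen with earlier results of these data known. For each gene the window and promoter were named, with at most 3 other regions past the threshold between E28 and E18 that moved the same way in both breeds, in order of adjusted p, and the highest region outside the promoter. Of the pathway list the 6 called genes of lowest adjusted p were named (among them PIK3CA, given no fold), and HGFAC, ST14, HPN, GRB2, STAT3 and CBL were added after their values were seen. The marker lists covered myogenic, fibroblast and mesenchyme, endothelial, sclerotome and cartilage, neural progenitor, neuron, epithelial, neural crest and blood genes. Sequences were read from the reference assembly and motifs searched on both strands. Other promoter sequences are not reported here. Alternatives were DESeq2 1.42.0, other size factors, other barcode limits (4000 to 60000 counts), no low-count filter, covered length, another peak rule, no breed term and leaving out each library.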

Additional observations from a re-analysis of the deposited data

Results flagged for a closer look

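The change from E18 to E28 went in opposite directions in the breeds for 3 of the named windows and regions, and in none was the difference itself tested, since each stage and breed had 1 library. The LBX1 window changed by -1.32 on the log2 scale in ZZ and by 0.14 in DZ, a difference of DZ minus ZZ of 1.46. The 17548 bp peak that covers the whole LBX1 domain in E18 ZZ enters this window sum. The LBX1 1 region, which sums all peaks of the domain (17548 bp in E18 ZZ, down to 10782 bp in E28 ZZ), differed by 0.46 (-0.07 in ZZ, 0.39 in DZ). The HGF window differed by -0.21 (0.03 in ZZ, -0.18 in DZ).

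The change from E18 to E28 also went in opposite directions in myogenic-like and mesenchyme-like cells, in both breeds of each class, for 4 measures, and these differences were not tested either. On the log2 scale, myogenic-like minus mesenchyme-like, the difference was 3.23 for GAB1 16, -3.09 for GAB1 9, -0.78 for the MEOX2 1 promoter region and -1.03 for the MEOX2 window. Both class fits passed for the GAB1 regions, and for MEOX2 only the fall in myogenic-like cells did. The mesenchyme-like class held mostly different finer clusters at E18 and E28. Its rise of GAB1 9 was not seen within the mesenchymal subcluster, where the stages overlapped. The E18 levels there rest on 22 and 8 counts of GAB1 9, in few cells of low depth.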

How the results depend on the processing

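Depth was lowest at E28, peaks were called per library, and each stage had 2 libraries, which limits the precision. The breed term pairs the libraries of a breed across stages, and without it 18 member regions passed between E28 and E18. No paired analysis was possible by replicate number because the labels give none. Leaving out a library moved the number of member regions that passed between E28 and E18 (17) over 5 to 17, between E21 and E18 (0) over 0 to 9 and between E28 and E21 (3) over 0 to 6. The windows moved over 2 to 4 (main value 4), 0 to 2 (0) and 0 to 1 (1). No breed call appeared under any alternative. Lone libraries of a stage were then assumed to vary like the others, and the share of all features was not counted for these fits.

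Regions of nearly equal covered length (within 1.5 times) gave 3 calls for E28 against E18 among the 7 members tested there, where 27 were tested otherwise. Shares of all features under the settings of this paragraph were not counted unless given above. For E21 against E18, regions numbered 2 with 4000 to 60000 counts per barcode, 7 with DESeq2, 6 with covered length as an offset, 1 within 1.5 times, 3 in mesenchyme-like cells, 1 in myogenic-like cells and 3 without the breed term. For E28 against E21 they numbered 8 with DESeq2, 13 with the offset, 0 with a peak in any library, 1 in mesenchyme-like and 1 in myogenic-like cells. Windows numbered 2 for promoters alone (E28 against E18). For E21 against E18 they were 4 with DESeq2, 2 with the offset, 2 in mesenchyme-like and 1 in myogenic-like cells, and for E28 against E21 they were 3 with DESeq2, 4 with the offset, 0 for promoters alone and 0 in mesenchyme-like cells.

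Of the named values, all E28 against E18 unless stated, these turned direction. With covered length as an offset MEOX1 2 was at 0.057, HGF 1 at 0.015, GAB1 5 at 0.24, and the LBX1, HGF and GAB1 windows at 0.34, 0.18 and 0.49. The medians under this offset were 0.43 over all regions and 0.54 over all windows, so each of these values lay below its median. Within 1.5 times of covered length MEOX2 1 and GAB1 1 were both at -0.16. In myogenic-like cells MEOX2 1 was at -0.61, MET 2 at 0.30, GAB1 27 at 0.38 (0.82 for E28 against E21), GAB1 11 at 0.41, and the MEOX2, HGF and GAB1 windows at -0.75, 0.059 and 0.038. Promoters alone put the MEOX2 window at -0.0080 and the MET window at -0.36 (-0.056 for E28 against E21). Over left-out libraries LBX1 1 ran from -0.20 (without E28 DZ) to 0.44 (without E28 ZZ), and its window from -1.34 (without E28 DZ) to 0.035 (without E28 ZZ). Counting only peaks that lie mostly inside the window put LBX1 at 17.19, a fitted value that depends on the prior count, since its E18 peaks then drop out. For values without a given reason the cause was not tested.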
